A study of Mus musculus with 30 samples.

Results

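The first hour of the response of mouse bone marrow-derived macrophages (BMDM) to bacterial lipopolysaccharide (LPS) was measured by RNA sequencing in the vehicle arm of a study that also tested an adrenergic agonist. The comparison set 7 libraries collected after 1 h of LPS against 7 libraries of the same cultures collected at 0 h, so it used 14 of the 30 libraries of the series. All 14 came from wild-type C57Bl/6 bone marrow cells that had been differentiated with M-CSF, the macrophage growth factor, in DMEM containing 20% FBS and used 6 days after plating. Every culture, the 0 h controls included, had been pretreated for 2 h with the vehicle DMSO. The 0 h cultures received no LPS, and the labels give its concentration in the others as 100 ng/µL. The labels call the cultures D3 to D6, UKD, r1 and r2. Each contributed 1 library per time. Libraries made from total RNA with a TruSeq kit had been quantified as RPKM, reads scaled to transcript length and to the mapped reads of the library, and 1 transcript line per gene was used. Changes are differences of log2(RPKM + 0.5), taken within each culture and averaged over the 7, with the standard error (SE) of the fitted change. P-values come from limma with the Benjamini-Hochberg adjustment over all 10063 genes tested, at a threshold of 0.05.

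LPS is sensed by TLR4 with its partners CD14 and MD-2 on the macrophage surface. The adaptors MyD88 and TRIF pass the signal to the NF-kB and MAP kinase pathways and to the interferon regulatory factors. Macrophages are known to answer within the hour with transcription factor and feedback inhibitor genes that need no new protein, together with the first cytokines and chemokines, while most interferon-stimulated genes follow once type I interferon has been secreted and bound.

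The macrophage label was borne out by the markers: all 18 macrophage identity genes exceeded 1 RPKM in at least 1 library at each time, and their summed level was 4649 to 7999 RPKM at 0 h and 4241 to 7887 RPKM at 1 h. T and NK cell markers summed to at most 2.501 RPKM in any of the 14 libraries, and 9 of these 10 genes stayed under 1 RPKM in every library. Neutrophil markers were low, with summed levels of 9.45, 31.5 and 52.1 RPKM (lowest, median, highest) at 0 h and 8.23, 42.2 and 95.03 RPKM at 1 h. Dendritic cell markers summed to 36.3, 103.9 and 231.7 RPKM at 0 h and B cell markers to 18.9, 31.9 and 44.2 RPKM. Of the dendritic cell list only Bst2 and the class II gene H2-Ab1, both also expressed by macrophages, and of the B cell list only Cd79b and Blnk reached the level needed for testing. Estimated depth was 5.38 to 71.6 M reads (M, mega), with a median of 44.7 M, and the 1 h libraries of D6 (5.38 M), UKD (8.49 M) and D4 (9.71 M) were the shallowest. The 0 h library of D4 stood apart before any LPS: it held the highest level of the 7 for 30 of 30 interferon-stimulated genes. Its median excess for these was 2.25 on the log2 scale over the median of the other 6 libraries. It was also the highest for 9 of 15 chemokines. In other lists UKD was the highest at 0 h for 20 of 28 ribosomal protein genes and 11 of 23 immediate-early factors. D6 was the highest for 8 of 17 inflammatory cytokines. Without D4, 900 genes were higher and 4704 lower at 1 h, and without the 3 cultures whose 1 h library was shallow the counts were 809 and 3685.

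After 1 h of LPS, 930 genes had risen (9.24% of the 10063 tested). All of them also passed after median-of-ratios scaling of the libraries. That scaling moved changes upward, so it could hardly remove a rise and is no independent check of the rises. The deposited values put 4973 genes (49.4%) lower, but RPKM values are shares of a library and the median gene changed by -0.15. Scaling brought that median to -0.01 and left 1788 of these genes (17.8%) lower. In all, the scaled values called 1592 genes higher and 1791 lower, so that the share of higher genes among the calls went from 15.8% to 47.1%. Without pairing by culture 420 genes were higher and 726 lower as deposited. Below, "fell" is used only of genes that were lower both as deposited and after scaling. The rises were larger than the falls. Of the rises, 297 (2.95%) reached 2-fold, 125 (1.24%) 4-fold and 34 (0.338%) 16-fold. A fall of 2-fold or more was seen for 55 genes (0.547%), a count that depended on the pseudocount of 0.5, with 133 at 0.1 and 25 at 1. Of the 55, Txnip alone exceeded 2 on the log2 scale among genes with an assigned name. In all 7 cultures together 778 genes rose (7.73%) and 1707 fell (17.0%). Of the 297 larger rises, 296 were higher in all 7 cultures and 218 had 1 h levels wholly above the 0 h levels, against 2.60% of all genes tested. All 55 larger falls were lower in 7 of 7 cultures and 39 of them did not overlap, against 3.09% of all genes tested. Testing required at least 1 RPKM in 3 of the 14 libraries. Genes under 1 RPKM in nearly all libraries of 1 time met this mainly by the other time. For such genes a lack of overlap adds little.

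**Figure D1:**
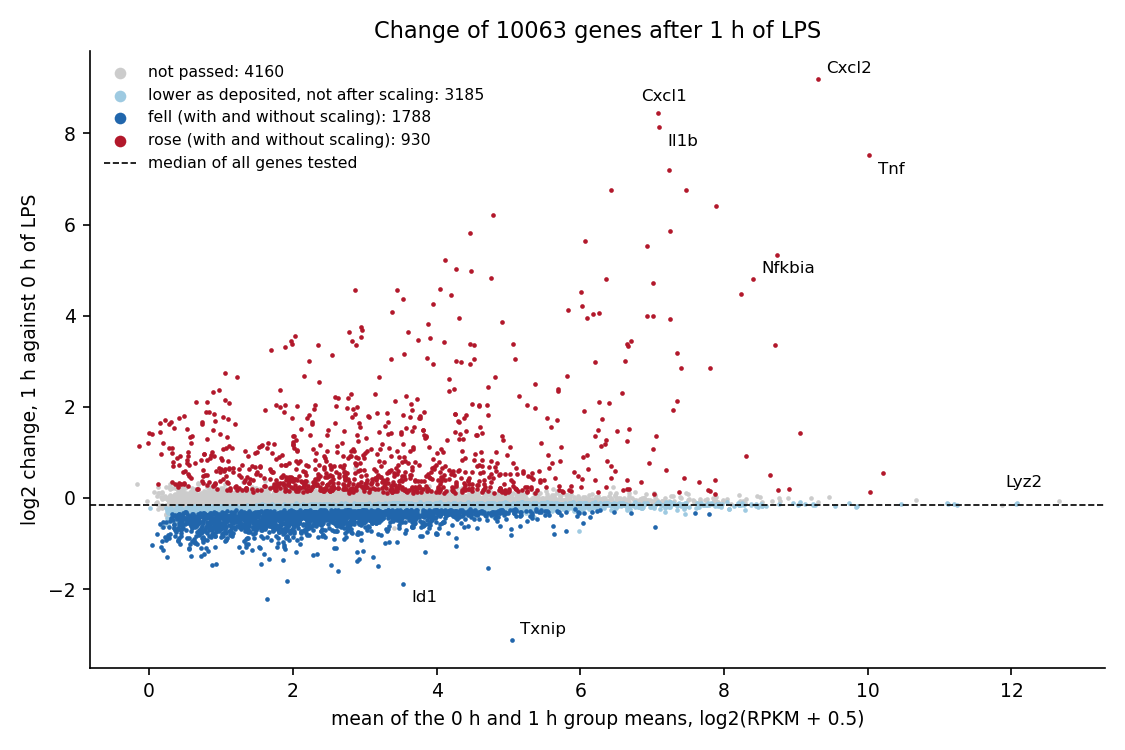
Each of the 10063 tested genes is a point, with the mean of the 0 h and 1 h group levels on the horizontal axis, as log2(RPKM + 0.5), and the log2 change at 1 h on the vertical axis. Red points rose (930), dark blue points fell with and without scaling (1788), light blue points were lower as deposited only (3185), and grey points did not pass; the dashed line is the median change of -0.15, and the upward arm reaches 9.20 (Cxcl2) while the downward arm ends at -3.11 (Txnip).

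The largest rise was that of Cxcl2, a neutrophil-attracting chemokine. Its level was 0.338, 1.07 and 5.70 RPKM (lowest, median, highest of 7) at 0 h and 848.4, 1204 and 1956 RPKM at 1 h. Every 1 h library lay far above every 0 h library, and the change was 9.20 ± 0.25 (SE, n = 7, adjusted p = 1.02e-09). Its neighbour Cxcl1, with the same receptor, went from 0.0364, 0.286 and 0.521 RPKM to 140.9, 250.1 and 460.4 RPKM, a change of 8.44 ± 0.16 (adjusted p = 1.24e-10). The Cxcl1, Cxcl2 and Cxcl3 genes are close paralogs, and how reads shared between them had been counted is not given in the sources used here. Il1b, which encodes the inactive precursor of interleukin-1β, was near the limit of detection before LPS, at 0.0385, 0.173 and 1.67 RPKM. After 1 h it stood at 115.1, 233.6 and 479.8 RPKM, so that all 7 cultures were higher and the groups did not overlap. The change of Il1b was 8.14 ± 0.28 (SE, adjusted p = 6.61e-09), smallest in D4 (6.76) and largest in r1 (9.56). Tnf, the cytokine TNF, already had 4.44, 11.9 and 17.6 RPKM at 0 h and reached 1300.5, 2191 and 2471 RPKM, the highest level per length of any gene that rose. Its change was 7.53 ± 0.22 (SE, adjusted p = 1.41e-09), again with no overlap. For both genes an exact two-sided sign-flip permutation test over the 7 cultures gave p = 0.0156, the smallest value that its 128 arrangements allow.

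The remaining places among the 15 largest rises were shared by secreted factors, feedback inhibitors and enzymes. Nfkbiz, which encodes IkBζ, a nuclear co-activator of secondary response genes, rose by 7.19 ± 0.17, Socs3, an inhibitor of JAK-STAT signalling, by 6.76 ± 0.13, and Tnfaip3, the ubiquitin-editing NF-kB inhibitor A20, by 5.85 ± 0.16 (SE, n = 7). Cxcl10 (6.77), the TNF-family ligand Tnfsf9 (6.41), Il1a (6.20) and Ccl4 (5.32) were the other secreted or membrane-bound signals. The enzymes were Ptgs2 (5.81), which encodes cyclooxygenase-2, and Acod1 (5.54), which makes itaconate. Ccrl2 (5.64), a chemerin-binding atypical receptor, and the zinc finger transcription factor Egr2 (5.23) completed the set. In 12 of these 15 genes the smallest change was that of D4. Before LPS that culture was the highest of the 7 for 2 of 17 inflammatory cytokines, Il1b and Tnf not among them. It was the highest for 9 of 15 chemokines. Its Acod1 level was 31.88 RPKM against at most 9.883 RPKM in the other cultures, and its Cxcl10 level 14.99 against at most 4.148 RPKM. Tnf stood at 17.4 RPKM in D4 against a median of 10.52 and at most 17.55 RPKM in the others. Il1b stood at 0.5628 RPKM against a median of 0.1541 and at most 1.674 RPKM. At 1 h D4 was the lowest for both, with Tnf at 1301 against at least 1920 RPKM and Il1b at 115.1 against at least 176.1 RPKM. Its 1 h level of Acod1 was the highest (336.9 against at most 331 RPKM), and that of Cxcl10 (203.4 RPKM) lay within the range of the others (186.1 to 757.8 RPKM). The part of the 0 h levels of D4 in these changes was not tested.

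**Figure D2:**
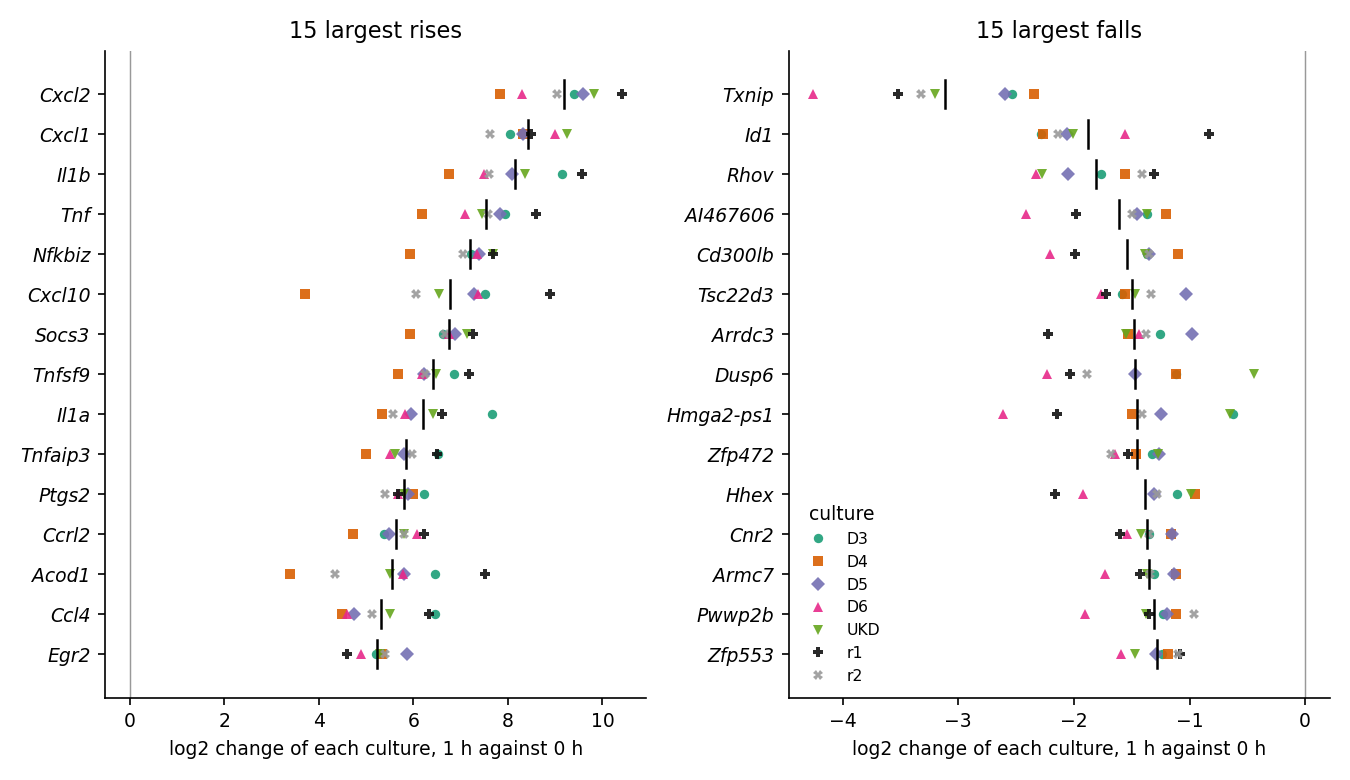
The 15 largest rises (left) and 15 largest falls (right) are shown with the log2 change of each of the 7 cultures as a coloured symbol and the fitted mean as a black bar. Rises are spread most for Cxcl10, from 3.72 in D4 to 8.90 in r1, and least for Ptgs2, from 5.41 to 6.22; among the falls Txnip stands apart, between -2.34 and -4.25.

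The 150 bases before the RefSeq start of 5 genes that rose and of the gene that fell most are given here because they show how differently these promoters are built around the letters of known early-response motifs. Capitals mark matches on either strand to TATAAA (the TATA box) or to the NF-kB site, searched as GGG and TTCC with 3 free bases between them, a pattern that includes the narrower NF-kB consensus, and in Cxcl2 additionally to the core of the CArG box. The sequences are from RefSeq on build GRCm38.p6, 5′ to 3′ on the strand of the gene. They are Tnf at chr17:35202008-35202157 (minus strand), Il1b at chr2:129371140-129371289 (minus), Cxcl1 at chr5:90891095-90891244 (plus), Cxcl2 at chr5:90903749-90903898 (plus), Nfkbia at chr12:55492648-55492797 (minus) and Txnip at chr3:96557807-96557956 (plus).
Tnf: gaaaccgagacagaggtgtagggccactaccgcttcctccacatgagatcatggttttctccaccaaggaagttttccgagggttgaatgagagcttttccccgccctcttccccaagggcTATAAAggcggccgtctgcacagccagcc
Il1b: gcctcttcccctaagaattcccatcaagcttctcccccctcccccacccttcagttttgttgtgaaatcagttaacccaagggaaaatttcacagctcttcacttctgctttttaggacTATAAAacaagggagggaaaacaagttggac
Cxcl1: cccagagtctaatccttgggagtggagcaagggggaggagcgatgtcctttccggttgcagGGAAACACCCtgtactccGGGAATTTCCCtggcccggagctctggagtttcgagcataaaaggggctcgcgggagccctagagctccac
Cxcl2: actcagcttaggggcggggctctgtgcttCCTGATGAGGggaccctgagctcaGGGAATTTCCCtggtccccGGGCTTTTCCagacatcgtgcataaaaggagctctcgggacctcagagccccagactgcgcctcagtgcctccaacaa
Nfkbia: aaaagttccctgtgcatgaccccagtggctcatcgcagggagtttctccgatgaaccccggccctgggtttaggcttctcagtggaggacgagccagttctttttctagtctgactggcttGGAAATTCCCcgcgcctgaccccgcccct
Txnip: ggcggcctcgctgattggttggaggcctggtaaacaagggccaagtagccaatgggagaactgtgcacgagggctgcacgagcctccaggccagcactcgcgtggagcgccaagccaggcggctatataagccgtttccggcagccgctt
In Tnf and Il1b the TATAAA match lies 29 to 24 and 31 to 26 bases before the start. Cxcl1 has overlapping NF-kB matches on opposite strands at 71 to 62 and 70 to 61 bases, and a further one at 89 to 80. Cxcl2 holds the corresponding pair at 97 to 88 and 96 to 87 bases and another match at 78 to 69, and Nfkbia has its single match at 29 to 20 bases. The stretch before Txnip holds none of the letters searched. A match is a description of letters and says nothing about binding.

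The same letters were then counted over all promoters with a RefSeq window. In the 300-base window from 250 bases before to 50 after the start, TATAAA was found in 16.4% of the 238 larger rises with a window, in 2.22% of the 45 larger falls with one and in 6.56% of all 8162 tested genes with one. The NF-kB pattern was present in 14.3% of the rises, 4.44% of the falls and 6.40% of all genes, and the narrower consensus in 2.94%, 0% and 0.392%. For TGANTCA, the AP-1 site, the shares were 10.5%, 2.22% and 4.90%, and for the core of the interferon response element, GAAA repeated after 2 free bases, 8.40%, 6.67% and 3.33%. The cAMP response element TGACGTCA (4.62% of the rises, 3.46% of all genes) and the CArG core, an AT between CC and GG with 2 free bases on each side (4.202% and 5.31%), were closer between these sets, although the CArG core was in 15.4% of the 26 rises of at least 16-fold with a window, 4 genes. The genes that changed most were also short. Their median span was 13.2 kb for the larger rises, 4.79 kb for the 34 rises of at least 16-fold and 10.8 kb for the larger falls, against 22.4 kb for all genes, with medians of 5, 4, 3 and 9 exons. Before LPS their median levels had been lower too, at 3.41 RPKM for the larger rises and 3.73 RPKM for the larger falls against 6.85 RPKM for all genes. Genes under the filter level in every library before LPS were tested only if they reached it after LPS. Low genes that did not change were left out. The lower starting level of the larger rises can therefore follow from this selection, and it is no independent trait of these genes. No test was made of these shares and medians.

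Immediate-early transcription factors, which are induced without new protein synthesis, rose for 19 of the 23 members tested (82.6%, against 9.24% of all genes tested). Their median change was 1.44 against -0.15 for all genes. Egr2 went from 0.245, 0.330 and 0.609 RPKM to 24.3, 30.1 and 44.8 RPKM (change 5.23 ± 0.12 SE, adjusted p = 3.14e-10), with no overlap. It met the filter of 1 RPKM in 3 libraries only by its 1 h levels, so the lack of overlap adds little. Egr1 changed by 5.02 ± 0.31 but was far more uneven, at 3.98 RPKM in r1, 14.8 in D4 and 15.7 in D6 against 67.9 in D5 and 70.0 in D3 at 1 h. The small Maf protein gene Maff (4.58), the AP-1 subunit Junb (3.99), Ier3 (3.86), the antiproliferative factor Btg2 (3.47) and Ier2 (2.62) all rose in 7 of 7 cultures. The classical AP-1 pair rose less: Fos by 1.31 ± 0.18, from a median of 6.22 to 16.9 RPKM, and Jun by 0.68 ± 0.26 (adjusted p = 0.0437), with D6 lower at 1 h by its own change of -0.63. The TGF-β-responsive repressor Klf10 was the one member that fell, by 0.89 ± 0.12 on the log2 scale, and Klf4, Mafk and Srf did not pass.

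Genes that switch MAP kinase signalling off rose for 8 of 11 members tested (72.7%, against 9.24% of all genes tested), with a median of 1.80. Dusp1, the nuclear phosphatase of p38 and JNK, went from 1.79, 4.89 and 11.9 RPKM to 72.2, 142.5 and 274.1 RPKM (change 4.80 ± 0.17 SE, adjusted p = 8.21e-09), with all 1 h libraries above all 0 h libraries. Dusp2 (4.46), Dusp5 (3.35), Dusp4 (2.68), Dusp8 (2.11), Spry1 (1.80), Dusp16 (1.75) and Spred1 (0.78) rose as well. Dusp6, a cytoplasmic phosphatase of ERK, went the other way. Its levels of 3.45, 6.75 and 12.2 RPKM at 0 h were 1.27, 2.40 and 4.603 RPKM at 1 h, a fall of 1.47 ± 0.18 on the log2 scale (adjusted p = 0.000109) that was seen in every culture although the groups overlapped.

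Of 21 NF-kB subunits and regulators, 15 rose (71.4%, against 9.24% of all genes tested), none fell, and the median change was 1.71. Beside Nfkbiz and Tnfaip3, given above, Nfkbia, which encodes IkBα, climbed from 13.9, 23.2 and 35.6 RPKM to 484.1, 584.3 and 989.7 RPKM (change 4.80 ± 0.15 SE, adjusted p = 3.36e-09), and Nfkbie (3.42), Tnip3 (3.06) and Nfkbid (2.97) rose as well. Among the subunits themselves Rel (2.13), Relb (2.06) and Nfkb2 (1.82) rose more than Rela (0.83) and Nfkb1 (0.57). The kinase subunit genes Chuk and Ikbkb changed by 0.02 each and did not pass. RNA-binding and decay factors that limit cytokine mRNAs rose for 11 of 17 members (64.7%, against 9.24% of all genes tested). Zfp36, which encodes the AU-rich element binding protein tristetraprolin, went from 7.23, 7.87 and 12.1 RPKM to 170.0, 247.4 and 323.0 RPKM (change 4.71 ± 0.16 SE), and the RNases Zc3h12c and Zc3h12a, the latter also called regnase-1, rose by 3.65 and 2.93. SOCS and JAK-STAT regulators rose for 7 of 15 (46.7%, against 9.24% of all genes tested), with the kinase gene Pim1 (4.04) next to Socs3, while Socs6 fell by 0.73.

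**Figure D3:**
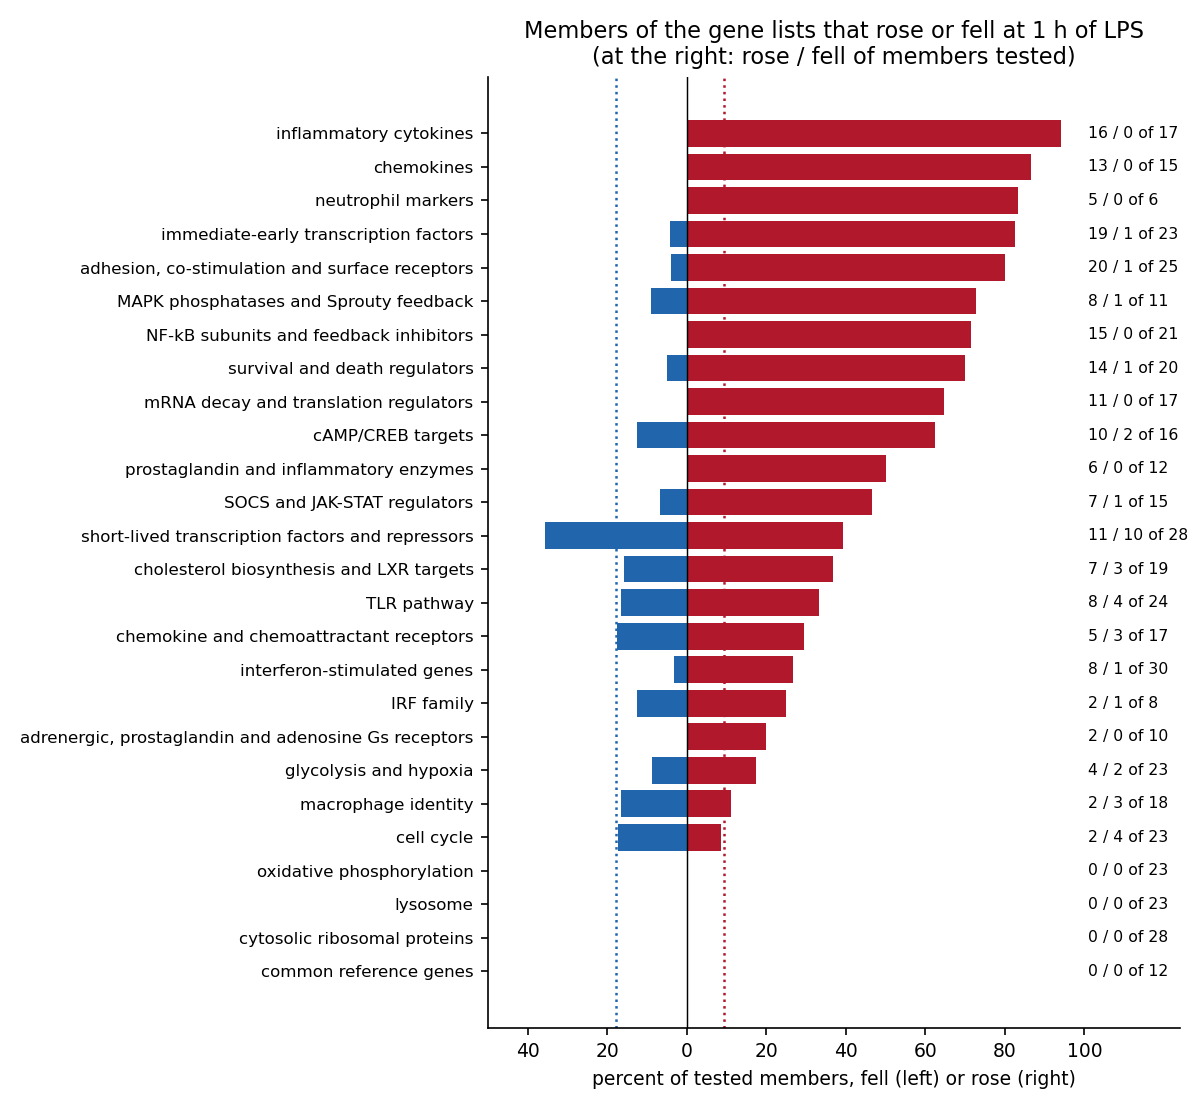
Bars give, for each gene list with at least 6 tested members, the percentage of members that rose (red, to the right) and that fell with and without scaling (blue, to the left); dotted lines mark the same percentages over all tested genes, 9.24% and 17.8%. Cytokines (16 of 17) and chemokines (13 of 15) have the longest red bars, and short-lived transcription factors and repressors (10 of 28) the longest blue one. The lists were chosen with earlier results of these data known.

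Inflammatory cytokines rose for 16 of the 17 members tested (94.1%, against 9.24% of all genes tested), with a median change of 3.31. Il18 (-0.02) was the one that did not pass. With at least 1 RPKM required in 7 libraries 11 of 12 tested members rose, and with no filter 17 of 20. Besides Tnf, Il1b, Il1a and Tnfsf9, the macrophage growth factor Csf1 went from 0.661, 1.19 and 3.15 RPKM to 13.3, 27.3 and 37.4 RPKM (change 3.82 ± 0.24 SE, adjusted p = 7.39e-07). Csf2, Il6, Ifnb1 and Lif changed by 3.55, 3.37, 3.31 and 3.24, each without overlap, but from medians of at most 0.0536 RPKM, at which a value is an upper limit. These 4 genes met the filter of 1 RPKM in 3 libraries mainly by their 1 h levels, so their lack of overlap adds little. Their 1 h medians were still only 3.04 to 5.03 RPKM, a small part of that of Tnf on the same per-length scale. Il10, the anti-inflammatory cytokine, rose by 1.77 ± 0.23, from 0.0529, 0.159 and 0.6998 RPKM to 0.401, 2.29 and 7.09 RPKM, and its groups overlapped. Il12b, the p40 subunit of interleukin-12 and interleukin-23, was the least even of all larger rises. It changed by 4.26 ± 0.60 (SE, adjusted p = 0.000236), with 2.07 in UKD and 7.93 in r1, where its 1 h level was 132.9 RPKM against a median of 4.96 RPKM.

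Chemokines rose for 13 of 15 tested members (86.7%, against 9.24% of all genes tested), with a median change of 3.35. Ccl4 went from 3.27, 20.6 and 52.0 RPKM to 331.2, 689.7 and 1539 RPKM (change 5.32 ± 0.23 SE) and Ccl3 from 6.14, 27.4 and 43.8 RPKM to 325.5, 461.2 and 1174 RPKM (4.47 ± 0.21). Both groups of libraries were fully separated, although Ccl3 and Ccl4 are paralogs whose reads may not be fully separable. The monocyte attractants Ccl2 (3.36) and Ccl7 (3.19) and the T cell attractant Ccl5 (3.35) rose by less, and Ccl6 and Cxcl14 did not pass. Ccl5 overlapped because of D4, which held 61.1 RPKM at 0 h against 0.260 to 3.03 RPKM in the other 6 cultures, and changed there by 0.54. Without D4 the change of Ccl5 was 3.82.

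Receptors, adhesion molecules and co-stimulators rose for 20 of 25 members (80%, against 9.24% of all genes tested), with a median of 1.48. Tnfrsf1a, a receptor of TNF, was the only one that fell (by 0.33). The co-stimulatory surface protein gene Cd83 went from 2.23, 5.01 and 8.16 RPKM to 66.01, 95.3 and 203.3 RPKM, the lymphocyte and macrophage activation marker Cd69 from 0.155, 0.298 and 2.26 RPKM to 12.5, 19.4 and 39.6 RPKM, and the integrin ligand Icam1 from 10.2, 13.8 and 19.3 RPKM to 139.1, 198.4 and 438.8 RPKM. No library at 1 h overlapped the 0 h range in these genes, whose changes were 4.53 ± 0.09, 4.36 ± 0.23 and 3.99 ± 0.18 (SE, n = 7). Cd40 (3.52), the C-type lectin gene Clec4e (3.44) and Sdc4 (3.01) also rose, while Cd86 changed by 0.10 and did not pass. Among 24 genes of the TLR pathway 8 rose (33.3%, against 9.24% of all genes tested) and 4 fell (16.7%, near the 17.8% of all genes). Tlr2 rose by 2.99 ± 0.20 and Cd14 by 2.85 ± 0.10, from 29.8, 40.9 and 48.5 RPKM to 189.4, 279.7 and 414.6 RPKM for Cd14. The kinase gene Map3k8 (1.46) and the adaptor genes Ticam1 (0.78) and Myd88 (0.44) rose by less. Tlr4, the LPS receptor itself, changed by -0.36 ± 0.07, its adaptor genes Tirap and Ticam2 by -0.69 and -0.53, and Tlr8 by -0.39. Of 17 chemoattractant receptors 5 rose (29.4%, against 9.24% of all genes tested), led by Ccrl2 and C5ar1 (1.27), and 3 fell (17.6%, near the 17.8% of all genes), led by the sphingosine-1-phosphate receptor gene S1pr2 (-1.18) and Ccr2 (-0.60).

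Survival and death regulators rose for 14 of 20 members (70%, against 9.24% of all genes tested), with a median of 1.11. The group held both protective and pro-apoptotic genes: the TRAF gene Traf1 (3.44), Gadd45b (3.37), the caspase-8 regulator Cflar (3.04), Birc3 (2.16), Bcl2a1d (2.03) and Mcl1 (1.07) rose, and so did Bcl2l11 (2.65), which encodes the BH3-only protein Bim, Fas (1.14) and Pmaip1 (0.77). Bcl2l11 went from 5.99, 6.80 and 8.96 RPKM to 28.6, 49.1 and 63.8 RPKM, with no overlap. Bcl2, Bcl2l1 and Traf2 changed by less than 0.05 in either direction and did not pass, and Gadd45g fell by 0.81. Bcl2a1b and Bcl2a1d are near-identical copies and their separate values are uncertain. Prostaglandin and other inflammatory enzymes rose for 6 of 12 members (50%, against 9.24% of all genes tested). Ptgs2 went from 0.0501, 0.166 and 0.759 RPKM to 27.7, 38.1 and 64.1 RPKM and was among the most even of the strong rises (5.81 ± 0.08 SE, adjusted p = 1.95e-11). Nos2, the inducible nitric oxide synthase, did not reach the level needed for testing; its median was 0.0152 RPKM at 0 h and 0.0411 RPKM at 1 h.

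Of 30 interferon-stimulated genes 8 rose (26.7%, against 9.24% of all genes tested), 7 of them by at least 2-fold. The median change of the list was 0.02, and 1 member fell. The guanylate-binding protein gene Gbp5 rose most, from 0.0706, 0.370 and 1.65 RPKM to 3.67, 8.28 and 35.2 RPKM (3.69 ± 0.36 SE, adjusted p = 1.93e-05). Isg15 (1.85), the antiviral gene Rsad2 (1.66), Ifit1 (1.64), Gbp3 (1.51), Gbp2 (1.38), Oasl1 (1.03) and Ifih1 (0.88) followed. Mx1 (-0.11), Irf7 (0.06), Ifit3 (0.05) and Usp18 (-0.06) did not pass. Stat2, a subunit of the factor that drives this class, fell by 0.69 ± 0.09 on the log2 scale. The elevated 0 h library of D4 touches this list directly. In D4, Isg15 stood at 43.7 RPKM and Ifit1 at 12.4 RPKM before LPS, against 0.890 to 12.5 RPKM and 0.390 to 3.44 RPKM in the other 6 cultures, and their own changes in D4 were 0.32 and 0.12. Leaving D4 out raised the fitted changes to 2.10 and 1.90 and gave 9 rises among 28 members tested; without pairing by culture only 1 of 30 passed. In the interferon regulatory factor family Irf1 rose from 4.17, 8.17 and 13.9 RPKM to 66.3, 155.7 and 188.7 RPKM (4.07 ± 0.10 SE, adjusted p = 3.27e-10), Irf4 by 1.63, and Irf8, a lineage factor of macrophages, fell by 0.52.

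**Figure D4:**
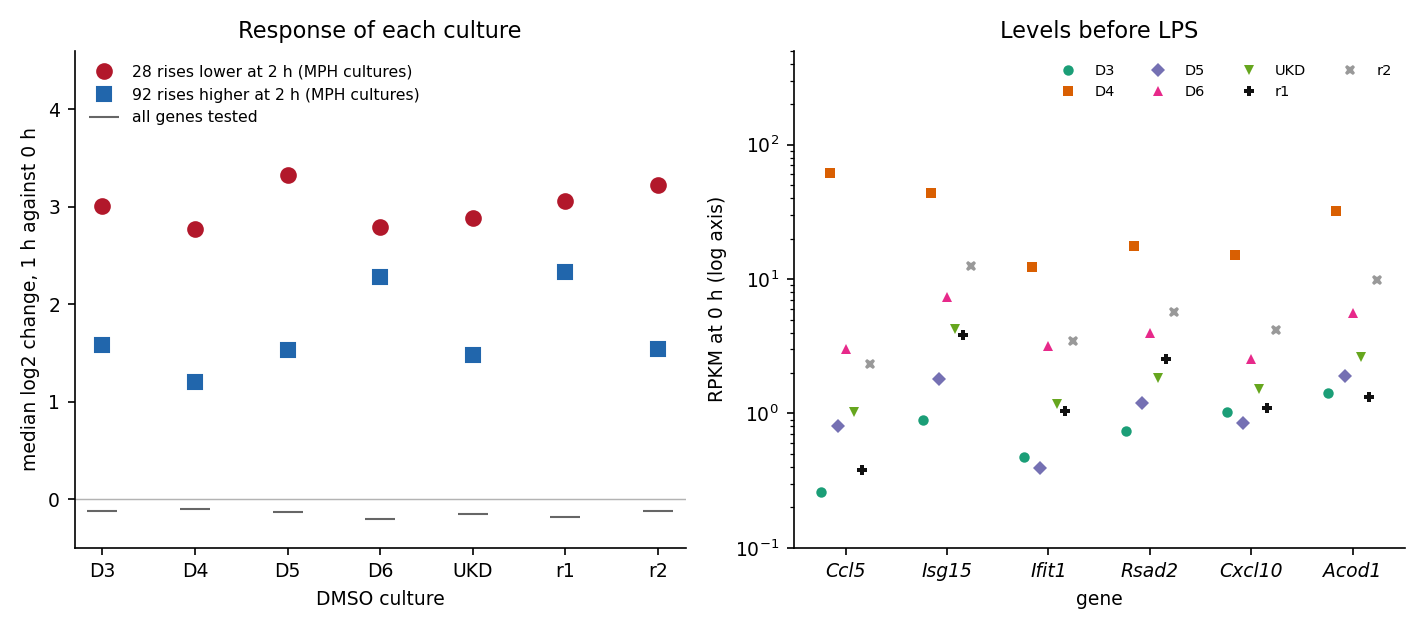
Left, the median log2 change at 1 h in each DMSO culture of the rises that were lower at 2 h than at 1 h in the MPH cultures (28 genes, red circles), of those that were higher (92 genes, blue squares) and of all genes (grey bars). Right, RPKM before LPS on a log axis for 6 genes in each culture; D4 is the highest of the 7 for Ccl5, Isg15, Ifit1, Rsad2, Cxcl10 and Acod1.

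The strongest fall was that of Txnip, which encodes the thioredoxin-interacting protein, an inhibitor of glucose uptake. Its levels of 36.9, 54.1 and 86.1 RPKM at 0 h were 1.46, 7.07 and 10.4 RPKM at 1 h, so that no 1 h library reached the lowest 0 h library. The change was -3.11 ± 0.19 (SE, adjusted p = 7.12e-07), a fall of 8.64-fold. Arrdc3, of the same arrestin family, fell by 1.48 ± 0.12. Gm15441, a non-coding gene that overlaps Txnip in antisense, changed by -2.22 ± 0.19, and because the use of strand in counting is not given in the sources used here, reads of the pair cannot be told apart. Id1, an inhibitor of bHLH transcription factors, went from 2.89, 22.1 and 29.7 RPKM to 0.836, 4.19 and 9.75 RPKM (change -1.88 ± 0.15 SE). The groups of Id1 overlapped because r1, D3 and r2 were low at 0 h, but all 7 cultures changed in that direction. Its relative Id3 rose instead, by 1.35 ± 0.07, from 12.4, 50.7 and 63.8 RPKM to 32.3, 112.4 and 173.9 RPKM.

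Other large falls were spread over receptors and regulators. Rhov, an atypical small GTPase, changed by -1.81, the immunoglobulin-like receptor gene Cd300lb by -1.54, Tsc22d3, the glucocorticoid-induced leucine zipper, by -1.50, the homeobox factor Hhex by -1.39 and the cannabinoid receptor gene Cnr2 by -1.37. Cd300lb went from 28.7, 37.3 and 54.8 RPKM to 7.67, 13.2 and 16.2 RPKM and Tsc22d3 from 11.0, 11.8 and 16.9 RPKM to 3.12, 4.33 and 5.14 RPKM, each with the groups apart. AI467606, Hmga2-ps1, Zfp472, Armc7, Pwwp2b and Zfp553 made up the rest of the 15 largest named falls, between -1.61 and -1.28, and D6 gave the lowest change in 10 of the 15. Short-lived transcription factors and repressors were the list in which falls were most frequent among lists with at least 6 tested members, with 10 of 28 lower (35.7%, against 17.8% of all genes tested). In the same list 11 were higher (39.3%, against 9.24% of all genes tested). Smad7 (-0.62) and Sesn1 (-0.84) were among the former, and the pseudokinase gene Trib1 (2.55), Cebpb (2.04), the Myc antagonist Mxd1 (1.95) and Ccng2 (1.41) among the latter. This list was chosen with earlier results of these data known. It holds Txnip, Id1, Tsc22d3, Arrdc3 and Hhex from the 15 largest falls, so its share of falls is no independent result. The regulator of G protein signalling Rgs2 fell by 1.06 whereas Rgs1 rose by 2.30.

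Of the 18 macrophage identity genes 2 rose, Cd14 and Cebpb (11.1%, near the 9.24% of all genes tested), and 3 fell (16.7%, against 17.8%). Cebpa, a myeloid lineage factor, went from 11.2, 22.9 and 43.4 RPKM to 5.18, 12.7 and 28.0 RPKM (change -0.87 ± 0.07 SE, adjusted p = 7.93e-06), and Maf changed by -0.50 ± 0.06. Both were lower in every culture and their groups overlapped. Csf1r, the M-CSF receptor, changed by -0.01 and did not pass. In cell cycle genes 4 of 23 fell (17.4%, a share near that of all genes), namely Ccnd1 (-0.61), Ccne1 (-0.41), Ccnd3 (-0.34) and Mcm6 (-0.31). Cdkn1a, the inhibitor p21, was 1 of 2 that rose (8.70%, near the 9.24% of all genes tested). It rose by 1.37 ± 0.10, from 54.6, 77.9 and 86.3 RPKM to 163.0, 187.7 and 230.7 RPKM.

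Genes linked to cAMP signalling were examined because the agonist of the wider study acts through cAMP. LPS with vehicle alone raised 10 of 16 tested cAMP/CREB targets (62.5%, against 9.24% of all genes tested) and lowered 2 (12.5%, against 17.8%). Pde4b, a phosphodiesterase that degrades cAMP, went from 0.551, 0.770 and 1.93 RPKM to 32.4, 44.4 and 48.5 RPKM (change 4.97 ± 0.11 SE, adjusted p = 2.42e-10), and Gem (4.56), the EGF-family ligand Areg (2.66) and Nr4a1 (2.00) rose without overlap. Crem changed by -0.03 and did not pass, and the kinase gene Sik1 fell by 0.72. Among receptors that couple to Gs and their effectors, the adenosine receptor gene Adora2b rose by 1.89 ± 0.15 and the prostaglandin E2 receptor gene Ptger4 by 1.27 ± 0.16.

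The direction of the ribosomal protein, oxidative phosphorylation and lysosomal lists depended on scaling. As deposited, no member rose among 28, 23 and 23 genes. Lower as deposited were 13, 16 and 17 of them, with medians of -0.11, -0.13 and -0.12, where 49.4% of all genes tested were lower. After scaling none was lower, 0, 1 and 2 were higher and the medians were 0.04, 0.01 and 0.03. In 23 glycolysis and hypoxia genes, with medians of -0.13 as deposited and 0.00 after scaling, Slc2a1 (0.52), Vegfa (0.47), Hif1a (0.38) and Hk2 (0.36) rose and Pfkfb4 (-0.48) and Pfkfb3 (-0.35) fell. In the cholesterol list 7 of 19 rose (36.8%, against 9.24% of all genes tested) and 3 fell. Insig1, a sterol-regulated inhibitor of cholesterol synthesis, rose by 1.01 ± 0.08 and the cholesterol exporter gene Abcg1 fell by 0.53 ± 0.07. Without pairing by culture no member of either list passed. Neutrophil markers were higher for 5 of 6 tested members (83.3%, against 9.24% of all genes tested). These were S100a8 (0.89) and S100a9 (0.73), which stimulated macrophages also express, and the granule genes Camp (0.71), Ngp (0.64) and Ltf (0.51). The defining marker Ly6g and the granule protease genes Elane, Mpo and Prtn3 were too low to be tested. None of the 5 passed without pairing by culture, and the part of other cells in these values was not tested. In bulk RNA a change in the number of cells of a type and a change in RNA per cell cannot be told apart.

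The 2 h libraries of the same cultures give the course of these genes; they share their 0 h libraries with the 1 h comparison, so levels are set side by side without a test. Of the 297 larger rises, 70 had a mean 2 h level more than 2-fold above the 1 h level on the log2 scale, 32 more than 2-fold below it, and 195 lay between. Egr1 was down to a median of 0.640 RPKM at 2 h from 34.1 RPKM at 1 h, Dusp1 to 17.1 from 142.5 RPKM, Zfp36 to 63.1 from 247.4 RPKM and Fos to 1.17 from 16.9 RPKM, which is below its 0 h median of 6.22 RPKM. Tnf (1491 RPKM at 2 h) and Nfkbia (448.0 RPKM) were past their highest measured level, whereas Il1b (502.6 RPKM), Cxcl10 (1049 RPKM), Il6 (35.8 RPKM) and Il12b (152.5 RPKM) had higher medians at 2 h than at 1 h. The interferon-stimulated genes Mx1 and Rsad2 had 2 h medians of 15.1 and 121.2 RPKM against 0.485 and 15.04 RPKM at 1 h. Of the 55 larger falls 10 were more than 2-fold lower still at 2 h, Dusp6 among them with 0.455 RPKM, and 2 were more than 2-fold higher than at 1 h.

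**Figure D5:**
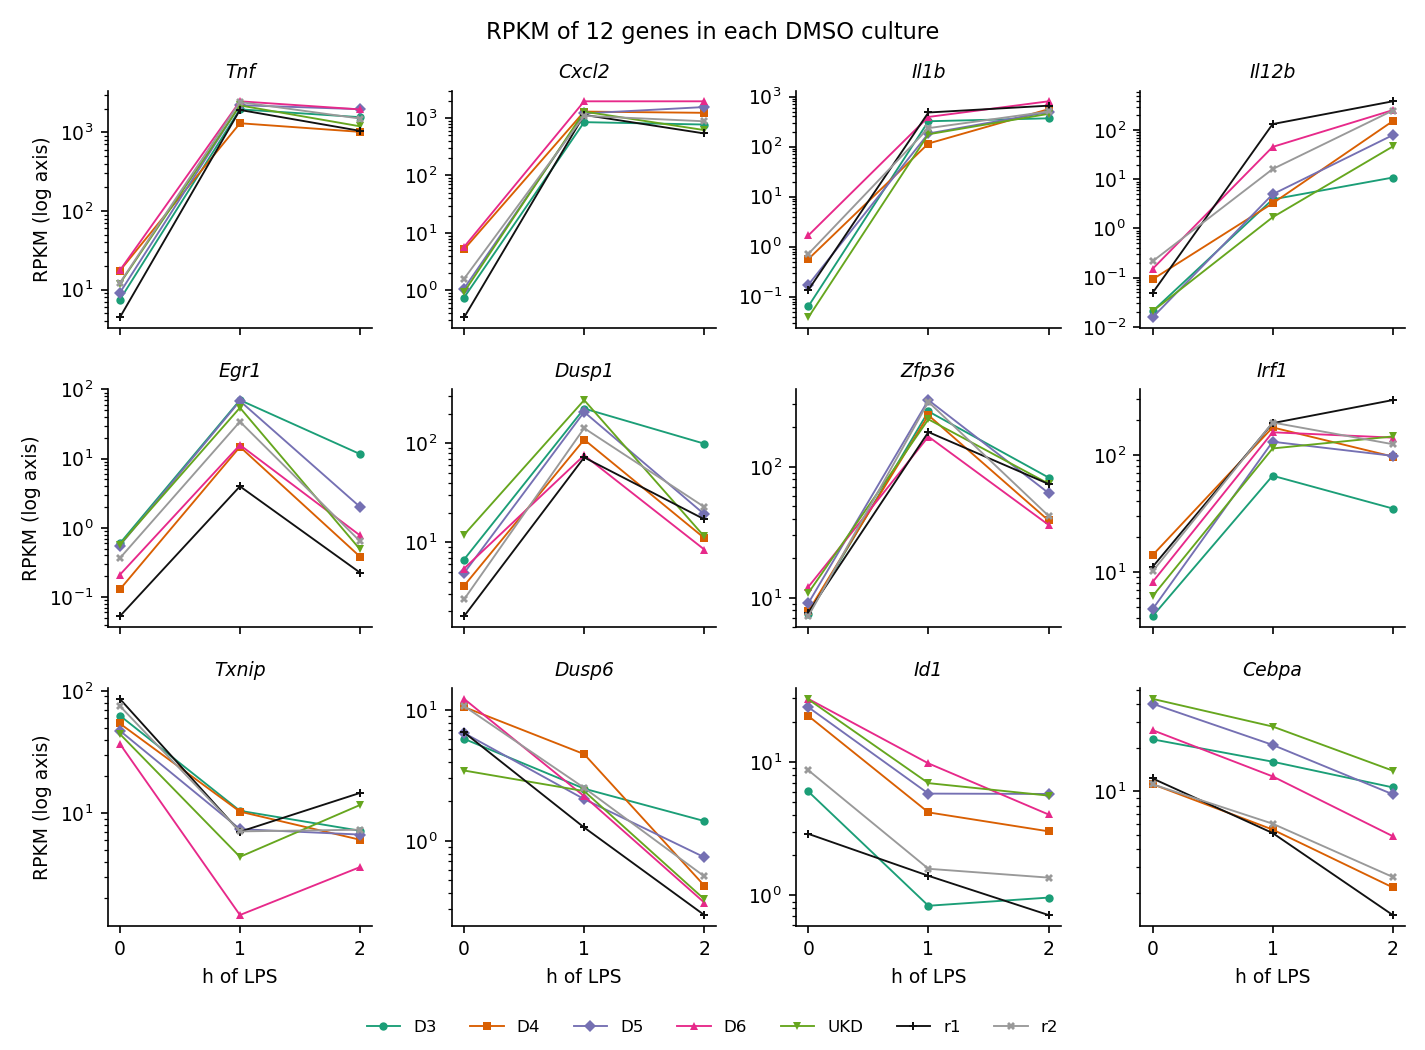
RPKM on a log axis at 0, 1 and 2 h of LPS for 12 genes, with 1 coloured line per DMSO culture. Egr1, Dusp1 and Zfp36 peak at 1 h in the measured times, Il1b and Il12b have higher medians at 2 h, and Txnip stays low with a median of 7.07 RPKM at 1 h and 7.16 RPKM at 2 h.

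Cultures differed in the size of the response. The median change of the 297 larger rises was 1.40 in D4, 1.74 in D3 and UKD, 1.78 in D5 and r2, 2.22 in D6 and 2.30 in r1. D4 gave the smallest change for 147 of these genes and r1 the largest for 131. To ask whether this followed the kinetics of a gene, the rises were sorted by libraries outside the comparison, the 2 h against the 1 h libraries of the cultures given the agonist metaproterenol hemisulfate (MPH, 1 µM). The 28 genes that were at least 2-fold lower at 2 h there had median changes of 2.77 (D4) to 3.32 (D5) in the DMSO cultures. The 92 genes that were at least 2-fold higher had medians of 1.21 in D4 and 1.48 to 1.58 in D3, D5, UKD and r2, but 2.28 in D6 and 2.33 in r1. Cultures D6 and r1 were thus the highest for the later genes, while their medians for the earlier genes, 2.79 and 3.06, lay within the range of the other 5. The 1 h library of D6 was also the shallowest, but that of r1, at 45.8 M reads, was not, and the part of depth was not tested. A test of the D cultures against UKD, r1 and r2 called no gene by limma (smallest adjusted p = 0.459), with 334 of 10063 genes at an unadjusted p under 0.05. This grouping by name set UKD against D5, whose levels deviated together with those of UKD. It therefore says little about other groupings of the cultures.

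The spread between cultures also differed between genes. Among the larger rises the SD of the 7 changes was widest for Il12b (2.10), Saa3 (1.67), Ccl5 (1.65), Cxcl10 (1.61) and Ccl7 (1.40), and narrowest for the homeobox repressor Tgif1 (0.14, with a change of 1.35), Birc3 (0.16, 2.16), Ccl22 (0.16, 1.11), the antioxidant regulator Nfe2l2 (0.18, 1.14) and Cdc42ep4 (0.19, 1.89). Saa3, an acute-phase protein gene, was another gene with a high D4 control, at 66.8 RPKM against 0.229 to 2.00 RPKM. The 5 highest genes per length at 1 h among those that rose were Tnf, Cxcl2, Spp1, Ccl4 and Vim. Spp1, osteopontin, had been high already, at 747.5, 938.3 and 1168 RPKM, and rose by 0.55 ± 0.07 to 1179.6, 1309 and 1996 RPKM with no overlap. Vim changed by 0.13 only (adjusted p = 0.0421).

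In the cultures given MPH before LPS, which share no library with the comparison, the same genes can be read without a test. Of the 297 larger rises, 294 were higher at 1 h in M2, 294 in M3 and 287 in M4, with medians of 1.74, 1.44 and 1.65, where all genes had -0.10, -0.13 and -0.06. Of the 55 larger falls 52, 54 and 53 were lower. The changes of Il1b in M2, M3 and M4 were 9.09, 5.99 and 6.42 and those of Tnf 9.49, 7.69 and 8.48, where the 7 DMSO cultures had 6.76 to 9.56 for Il1b and 6.18 to 8.60 for Tnf.

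Transcript lines of the same gene changed by similar amounts with few exceptions. Of 11654 line pairs tested within genes, 54 passed the threshold, in 33 genes (960 at an unadjusted p under 0.05), and 9 pairs in 4 genes differed by at least 0.5. In Cflar the kept line NM_001293805 rose by 3.04, from 5.07, 6.46 and 11.9 RPKM to 48.8, 58.2 and 74.0 RPKM. The non-coding line NR_149258 of Cflar changed by 0.47, from 1.43, 2.04 and 2.85 RPKM to 1.62, 3.04 and 3.84 RPKM, a difference of -2.58 ± 0.19 (SE, adjusted p = 0.00522). In Tsc22d1 the kept line NM_001310647 rose by 1.02, from 2.30, 3.37 and 5.06 RPKM to 6.43, 7.78 and 9.13 RPKM, while the lines NM_001310646 and NM_207652 changed by 0.27 and 0.26 (differences -0.74 and -0.76, adjusted p = 0.000969 and 0.00133). These 3 differences passed in all 9 alternatives tried, and those of the remaining lines of Cflar and of Bfar and Ctsc in 1 to 6 of 9. How reads of exons shared by several lines had been assigned is not given in the sources used here.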

How the data were processed

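RNA had been sequenced from 30 macrophage libraries, of which the 14 of the DMSO cultures at 0 h and 1 h of LPS were compared. Per the submitters' processing notes, which list no versions, the tools were FastQC, cutadapt, HISAT2 and SAMtools and the build was mm9. For the counting program, its annotation, its strand setting and reads with several matches, the sources used here give nothing. The deposited values are RPKM, computed by the authors for 44401 RefSeq transcript lines of 24761 gene symbols. A symbol was represented by its line of highest mean RPKM in the whole table. Genes reaching 1 RPKM in 3 or more of the 14 libraries were analysed as log2(RPKM + 0.5), a scale that understates fold changes of low genes, and 14698 genes failed this filter. No value equals 0. Transcripts with no read carry the worth of 1 read, which makes low values upper limits. Depth was estimated from those steps over 6323 transcripts. A single read in a 2 kb transcript stood for 0.007 to 0.093 RPKM.

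The fit was limma-trend (limma 3.58.1, R 4.3.3) with culture as a block and time, two-sided, and Benjamini-Hochberg adjustment over all genes tested. Libraries of the same culture deviated together from the mean of their time: the correlation of a culture with itself was 0.643 to 0.919 and exceeded its correlation with every other culture. D5 with UKD and r1 with r2 also deviated together (0.659 to 0.682 and 0.612 to 0.665), and fits that averaged these pairs were added after seeing the data. The labels do not say whether cultures came from separate animals, so p-values measure only the spread between these samples. On simulated data of 10063 genes the fit recovered 45 of 50 genes changed by 0.5 and 50 of 50 changed by 1 on the log2 scale, with 12 false among 207 calls. The simulated noise was independent between genes and held no common shift. These false calls therefore do not cover the median change of -0.15 in the data.

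Genes named are Il1b and Tnf, the 15 largest rises and falls (Gm, Rik and short non-coding symbols not named), up to 6 members of each of 31 gene lists with the smallest p, other list members by value, the 5 most and 5 least even larger rises, and the 5 highest rises at 1 h. The members and lists were chosen with earlier results of these data known. Hmgcs1 and Ighm were not analysed here, and a few genes that the rule names are not reported here. Gene spans and promoter windows come from RefSeq (GRCm38.p6) and exon numbers from GENCODE M21, matched by name because their build differs from that of the files. Pairing, pseudocount, filter, scaling, transcript line, weights, sets of cultures and each left-out culture were varied.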

Additional observations from a re-analysis of the deposited data

Results flagged for a closer look

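The change of each of the 172 named genes was examined for 1 culture lying far from the other 6, by Dixon's gap test at the 95% level. It marked 11 of the 172 genes, a share not far above the 1 in 20 groups that chance alone marks. Culture r1 was far above the others for Ccl7 (6.15, others 1.92 to 3.40), Dusp4 (3.42, others 2.31 to 2.78) and Cdkn1a (2.07, others 1.12 to 1.38). D4 was far below for Nfkbiz (5.93, others 7.05 to 7.70), Pde4b (4.21, others 4.92 to 5.27) and Cflar (2.41, others 2.95 to 3.32), and was also the culture with the highest interferon-stimulated genes before LPS. D6, the shallowest library at 1 h, was far above for Cebpb (3.07, others 1.56 to 2.15) and Vim (0.417, others 0.000148 to 0.163). Culture r2 was far below for the neutrophil granule gene Ngp (-0.310, others 0.610 to 0.948) and for Hk2 (0.134, others 0.355 to 0.474), and D3 for Gnas (-0.325, others -0.145 to -0.0447). In 10 of these genes all 7 cultures changed in 1 direction, and in Ngp 6 of 7 did. The part of depth or of the 0 h levels in these values was not tested.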

How the results depend on the processing

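Under every alternative run, Il1b (7.45 to 9.29) and Tnf rose, and the count of rises of at least 2-fold stayed within 1.5 times of 297. Counts of small changes moved more. Without the replicate block that pairs libraries of a culture, 420 genes were higher and 726 lower, and 13 list members were lower, where the paired fit gave 930, 4973 and 136. With the name series in place of the block the counts were 499, 1198 and 19, and after median-of-ratios scaling 1592, 1791 and 36. The D cultures alone gave 2576 lower genes and 81 lower list members, UKD, r1 and r2 alone 2460 and 66, and leaving out the cultures with a shallow 1 h library 90 lower list members. Falls of at least 2-fold numbered 133 with a pseudocount of 0.1 and 25 with 1, against 55. Transcript line pairs past the threshold numbered 6 with a pseudocount of 0.1 and 13 to 33 with 1 culture left out, against 54. Scaling turned the small changes of Actb (0.0378), Gnas (0.0185) and Rps18 (0.00924) to positive, none past the threshold. The cause of these shifts was not tested. Leaving out 1 culture gave 860 to 901 rises and 4309 to 4742 lower genes. Of the 172 named genes, 170 passed in all such fits that tested them (not Actb and Vim) and 108 in all alternatives that tested them. Averaging D5 with UKD and r1 with r2, chosen after seeing the data, gave 839 rises and 4106 lower genes. With under 10 M reads, 3 libraries at 1 h limit what can be said of genes near 1 RPKM.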

Other observations

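Of the 297 rises of at least 2-fold, 168 are in none of the gene lists, and all 168 were higher in 7 of 7 cultures, with a median change of 1.57 and 51 of them past 4-fold. The genes named here were chosen after their values were seen. Csrnp1, which encodes a nuclear protein, went from a median of 1.33 to 56.0 RPKM (4.84). Ppp1r15a, which encodes the eIF2α phosphatase subunit GADD34, went from 5.70 to 113.0 RPKM (4.11). Nlrp3, the inflammasome sensor whose complex processes pro-interleukin-1β, went from 8.26 to 110.9 RPKM (3.95), beside the rise of Il1b itself. The histone H3K27 demethylase gene Kdm6b rose by 3.74, the repressor Prdm1 by 3.63 and the EGF receptor inhibitor Errfi1 by 3.96. Marcksl1 rose by 4.21 and its relative Marcks by 1.82. The intracellular sensor gene Nod2 (2.36) and its kinase partner gene Ripk2 (2.25) rose together.

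Among the 55 falls of at least 2-fold, 47 are in none of the lists. Zinc finger genes with symbols that start with Zfp or Zscan made up 9 of the 55 (16.4%) and 103 of the 1733 smaller falls (5.94%), against 194 of all 10063 genes tested (1.93%) and 3 of the 297 larger rises (1.01%). Zfp61, for example, went from a median of 1.82 to 0.483 RPKM (-1.27) and stood at 0.493 RPKM at 2 h, whereas Zfp553 went from 1.69 to 0.387 and back to 1.26 RPKM. Rassf1, Armc7 and Sertad3 likewise had 2 h medians of 8.40, 2.44 and 2.35 RPKM against 4.12, 1.28 and 1.03 RPKM at 1 h. The thrombomodulin gene Thbd was lower still at 2 h, at 0.146 RPKM after 0.563 RPKM at 1 h.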
